A study of Mus musculus with 42 samples.

Results

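The fibroblast and telocyte markers followed here were 10 genes, Pdgfra, Pdgfrb, Foxl1, F3, Sox6, Cd34, Cd81, Pi16, Ackr4 and Dpt. They were taken by name, with earlier results of these data known. All 10 had a row in each of the 4 tables of Gli1+ stromal cells, which together listed 17645 genes. Adult mice of 3 genotypes received tamoxifen injections (subcutaneous in the labels, intraperitoneal in the study's methods), and their tdTomato+ cells were sorted at day 30, separately for each colon segment (proximal, distal). GWTT mice, the controls, carried Gli1-CreERT2 with a Rosa26-tdTomato reporter and wild-type Smad4 and Alk3. GS4T mice carried the same alleles and Smad4 fl/fl, and GA3T mice carried them with Alk3 fl/fl, a gene that the tables list as Bmpr1a. Each genotype had 2 libraries per segment, 12 in all, and the GWTT libraries of a segment served as controls of both knockouts. The Cre acts in cells that express Gli1 when tamoxifen is given, and the reporter also marks their descendants, so a sorted cell need not still express Gli1. How many mice went into a library is not given in the sources used here, so the p-values measure the spread between these libraries. In proximal GWTT cells and in GA3T cells of both segments, reads of Xist and Ddx3y showed a male first and a female second library. Those libraries came from different mice, so their spread includes mouse and sex. In the other groups, all female, the spread may be technical.

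Fibroblasts of the gut wall fall into subsets that sit at different depths. Telocytes lie directly under the epithelium, carry high levels of the receptor gene Pdgfra, and express the transcription factor gene Foxl1 with Sox6 and F3. They supply BMP and Wnt ligands to the epithelium. Fibroblasts with lower Pdgfra lie deeper and carry Cd34. Those around the crypt base also carry Cd81 with Ackr4 and make BMP antagonists, and those of the submucosa and adventitia carry Pi16 and Dpt. BMP ligands bind receptors such as ALK3, and Smad4 is the partner with which the activated Smads enter the nucleus.

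Several facts of the libraries stand before the results. Stromal libraries held 14222902 to 23686940 reads (median 17404903). Levels are given as CPM, the reads of a gene scaled to a fixed library total. Smad4 was at 41.5 to 70.1 CPM in the 4 GS4T libraries and at 94.9 to 108.6 in the 4 GWTT libraries, and Bmpr1a was at 105.0 to 124.9 in GA3T and 166.4 to 188.5 in GWTT. The targeted gene was thus lower in every knockout library, with log2 fold changes against GWTT of -1.09 (limma adjusted p = 0.010) and -0.96 (0.042) for Smad4 and of -0.61 (0.12) and -0.69 (0.10) for Bmpr1a in the proximal and distal segment, and both transcripts were still present. Gli1 was at 1.40 CPM in the second proximal GS4T library and at 1.98 in the second proximal GA3T library, against 38.0 to 99.6 in the other 10. By their reads of Xist and Ddx3y, 3 libraries were male (the first proximal GWTT library and the first GA3T library of each segment) and 9 were female. The tissue field of the labels names the epithelium, whereas 8 general fibroblast markers, collagens among them, summed to 50487 to 72428 CPM and 6 epithelial markers to 15.4 to 2173. In a bulk library fewer cells of a subset and less RNA per cell cannot be told apart.

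All 10 are protein-coding genes, and all but Pdgfrb are placed here on the mouse assembly GRCm38. Pdgfra is on chromosome 5 (75152292 to 75198215, plus strand), Foxl1 on chromosome 8 (121127940 to 121130644, plus), F3 on chromosome 3 (121723537 to 121735048, plus) and Sox6 on chromosome 7 (115470872 to 116038796, minus). Cd34 is on chromosome 1 (194938819 to 194961279, plus), as is Dpt (164796644 to 164824266, plus), Cd81 on chromosome 7 (143052739 to 143067934, plus), Pi16 on chromosome 17 (29317680 to 29330593, plus) and Ackr4 on chromosome 9 (104084157 to 104126933, minus). Exons of other genes overlap those of Pdgfra by 652 bases, Ackr4 by 479 (Acad11, on the other strand), Pi16 by 222, Cd34 by 148 and Cd81 by 104. The strand setting of the read counting is not given in the sources used here, so reads in those stretches cannot be assigned to 1 of the genes.

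RefSeq promoter windows (GRCm38.p6) were searched for 8 of the 10 genes, with several for Sox6, and not for Pdgfrb and Foxl1. Shown are stretches of 220 bases that end 30 bases before the start site, of Pdgfra, the gene that defines telocytes by its high level, and of Cd34, Cd81 and Dpt, whose levels were most alike across the libraries. They are written 5′ to 3′ on the plus strand, and capitals mark the core Smad element GTCTG (or CAGAC on the other strand). The stretches are chr5:75152001-75152220, chr1:194938571-194938790, chr7:143052500-143052719 and chr1:164796413-164796632, in that order.
Pdgfra: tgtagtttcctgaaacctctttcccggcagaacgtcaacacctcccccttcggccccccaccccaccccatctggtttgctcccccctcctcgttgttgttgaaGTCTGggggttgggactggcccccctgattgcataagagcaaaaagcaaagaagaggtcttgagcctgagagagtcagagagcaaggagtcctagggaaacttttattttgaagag
Cd34: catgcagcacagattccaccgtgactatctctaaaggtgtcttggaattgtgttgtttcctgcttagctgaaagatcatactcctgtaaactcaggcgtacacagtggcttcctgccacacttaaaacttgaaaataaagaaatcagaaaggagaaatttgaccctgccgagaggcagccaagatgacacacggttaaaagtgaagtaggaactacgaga
Cd81: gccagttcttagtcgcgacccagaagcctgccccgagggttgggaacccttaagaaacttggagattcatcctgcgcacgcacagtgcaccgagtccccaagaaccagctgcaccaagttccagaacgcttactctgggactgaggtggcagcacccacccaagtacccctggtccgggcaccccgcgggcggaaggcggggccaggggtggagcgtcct
Dpt: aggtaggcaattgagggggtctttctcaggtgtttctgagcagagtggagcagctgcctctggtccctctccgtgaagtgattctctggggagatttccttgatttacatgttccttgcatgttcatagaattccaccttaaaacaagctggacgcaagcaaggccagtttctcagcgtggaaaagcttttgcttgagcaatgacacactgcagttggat

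The core element was found once in the Pdgfra stretch and in none of the stretches of Cd34, Cd81, Dpt and F3. It was found in Pi16, in Ackr4 (2 matches) and in 2 of 6 Sox6 windows, and 38.5% of all 32851 windows in the table hold it. The GC-rich Smad element GGCGCC was found once, in Pi16 (8.16% of all windows). The palindromic element GTCTAGAC (0.158%) and the Gli element TGGGTGGTC (0.219%) were in none of the windows of these genes. These matches describe the letters of the windows and nothing about binding.

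In control cells the segments differed in the subsets' genes. Per kilobase of exon, Dpt was highest in both segments, at 2658 ± 95.9 (SD, n = 2) CPM per kb proximally and 1343 ± 59.0 distally, and Sox6 was lowest, at 1.55 and 4.15. In the proximal colon Cd34 (134 CPM per kb), Pdgfra (96.1) and Ackr4 (91.0) followed Dpt, and Cd81 (53.1), Pdgfrb (49.7), F3 (42.9), Pi16 (23.6) and Foxl1 (5.68) came after them. The 2 Ackr4 libraries there differed widely, so its place beside Pdgfra was within their spread. In the distal colon the order was Dpt, Pdgfra (118), Cd34 (94.2), Pdgfrb (64.2), F3 (50.4), Pi16 (38.3), Cd81 (28.0), Foxl1 (22.4) and Ackr4 (10.7).

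Foxl1, the winged-helix transcription factor of telocytes, was at 14.7 and 16.1 CPM in the proximal and at 60.4 and 60.9 in the distal control libraries. The groups did not overlap, and the log2 difference, proximal minus distal, was -1.97 ± 0.12 (SE; limma adjusted p = 0.0038). Sox6, an SRY-box transcription factor, was at 23.4 and 22.4 in the proximal and 60.9 and 62.2 in the distal colon, a log2 difference of -1.42 (adjusted p = 0.0068). Ackr4, a receptor that scavenges chemokines, went the other way. It was at 615 and 364 CPM in the proximal and 53.3 and 61.7 in the distal libraries, a log2 difference of 3.04 ± 0.25 (adjusted p = 0.0073). These 3 were the members that passed both limits, 0.05 for the adjusted p and a size of 1 or more on the log2 scale: 1 higher (0.884% of 15388 genes tested were higher) and 2 lower (1.44%).

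Cd81, a tetraspanin, was at 148 and 158 CPM in the proximal and 79.5 and 81.8 in the distal control libraries (log2 difference 0.92, adjusted p = 0.010), and Dpt, which codes for the matrix protein dermatopontin, was at 4700 and 4466 against 2387 and 2243 (0.99, adjusted p = 0.030). Both fell short of the size limit. Pi16, a peptidase inhibitor of adventitial fibroblasts, was at 141 and 159 in the proximal and 249 and 238 in the distal colon (-0.70, adjusted p = 0.025). Cd34, a sialomucin, was at 913 and 1045 against 713 and 660 (0.51, adjusted p = 0.091), Pdgfra at 1002 and 925 against 1232 and 1140 (-0.30, adjusted p = 0.26), and Pdgfrb, the receptor gene shared with pericytes, at 273 and 272 against 366 and 337 (-0.37, adjusted p = 0.11). F3, the gene of tissue factor, was at 91.4 and 126 against 124 and 131 (-0.25, adjusted p = 0.51), and it was the member whose segments overlapped. The segments did not overlap for 9 of 10 members and for 48.4% of all genes tested.

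The first proximal GWTT library was male and the other 3 GWTT libraries were female. The proximal female library alone gave differences from the distal mean of -1.91 for Foxl1, -1.45 for Sox6 and 2.66 for Ackr4, and the male library gave -2.04, -1.39 and 3.42. With any 1 of the 4 libraries left out 0 members passed, and without the male library, which a term for sex also sets aside, 0 genes passed. edgeR and DESeq2 on the recovered reads each called these 3 members and Dpt.

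**Figure D1:**
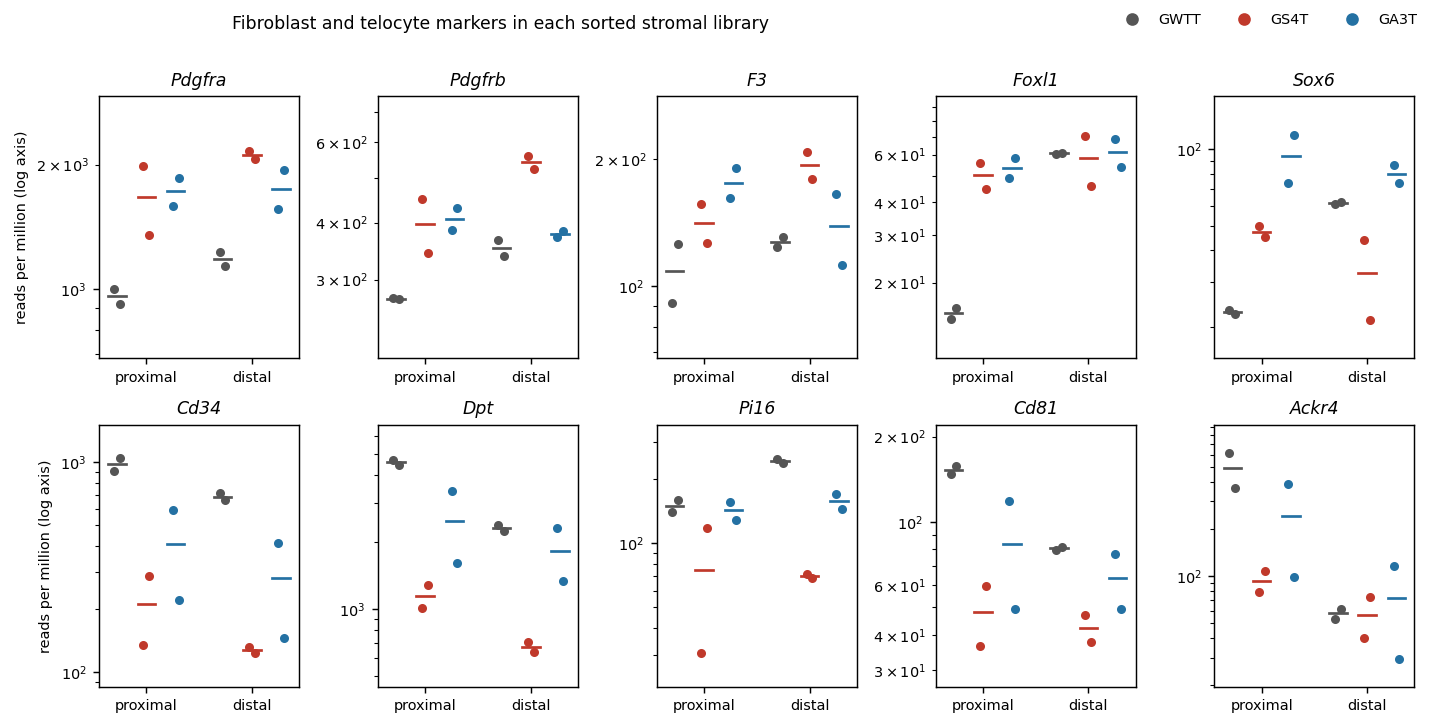
CPM of each marker (log axis) in the 12 stromal libraries, by colon segment and genotype; points are libraries and lines the mean of 2. Proximal GWTT libraries were the lowest for Foxl1 (14.7 and 16.1), whereas both GWTT libraries of a segment lay above its GS4T and GA3T libraries for Cd34 and Cd81.

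In the proximal colon of GS4T mice the members that passed both limits went in opposite directions, telocyte genes up and deeper fibroblast genes down. Of the 10 members 2 rose, Foxl1 and Sox6, and 4 fell, Cd34, Cd81, Ackr4 and Dpt, while 5.25% of 15319 genes tested rose and 4.36% fell. The groups did not overlap for all 10 members and for 65.4% of all genes. Values from here to the comparison of segments are normalized counts, scaled within each table.

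Foxl1 was at 248 and 266 normalized counts in proximal GWTT cells and at 907 and 766 in GS4T cells, which is a log2 fold change of 1.69 ± 0.15 (SE; limma adjusted p = 0.0066). Sox6 was at 396 and 372 in GWTT and 809 and 771 in GS4T cells (log2 1.04 ± 0.12, adjusted p = 0.011). Both GS4T libraries lay above both controls for each gene, and upper-quartile rescaling took Sox6 below the limits. Pdgfra, the telocyte receptor, was at 16941 and 15334 in GWTT and 32325 and 23106 in GS4T cells (log2 fold change 0.76, adjusted p = 0.072). Pdgfrb, at 4616 and 4508 against 7338 and 5868 (0.52, adjusted p = 0.065), and F3, at 1545 and 2084 against 2546 and 2160 (0.39, adjusted p = 0.20), did not pass.

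Cd34 fell from 15441 and 17338 normalized counts to 2199 and 4885 in proximal GS4T cells, a log2 fold change of -2.32 ± 0.38 (SE; adjusted p = 0.021). Dpt fell from 79459 and 74073 to 16381 and 21973 (log2 fold change -2.02 ± 0.23, adjusted p = 0.010). Cd81 fell from 2504 and 2614 to 597 and 1019 (-1.71 ± 0.26, adjusted p = 0.018). Ackr4 fell from 10402 and 6037 to 1280 and 1838 (-2.37 ± 0.31, adjusted p = 0.013). For each of these 4 the higher GS4T library stayed below the lower control. Pi16 was split, at 2380 and 2640 in GWTT and at 499 and 2025 in GS4T cells (log2 fold change -1.32 ± 0.64, adjusted p = 0.21).

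The second proximal GS4T library, in which Gli1 was nearly absent, bore on the calls. The members that passed changed when either GS4T library was left out, in fits that rest on 1 GS4T library. The log2 fold change of Pi16 was -2.33 without the second GS4T library and -0.31 without the first. The fold changes themselves kept their sign with each library left out in turn, between 1.57 and 1.82 for Foxl1, between 0.99 and 1.08 for Sox6, between -2.90 and -1.74 for Cd34, between -2.10 and -1.33 for Cd81, between -2.76 and -1.98 for Ackr4 and between -2.23 and -1.80 for Dpt. Without the male control library the same 6 members passed.

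In the distal colon of GS4T mice Cd34 and the adventitial genes Pi16 and Dpt fell, and no member passed both limits upward. Cd34, Pi16 and Dpt passed the limits, 3 of 10 members, against 6.08% of 15262 genes tested that fell and 7.88% that rose. The groups did not overlap for 8 of 10 members and for 67.5% of all genes. Cd34 fell from 11694 and 10717 normalized counts to 2167 and 2054, a log2 fold change of -2.41 ± 0.11 (SE; adjusted p = 5.8e-04). Pi16 fell from 4091 and 3868 to 1175 and 1143 (-1.78 ± 0.10, adjusted p = 8.3e-04), and Dpt from 39163 and 36437 to 11600 and 10681 (-1.76 ± 0.15, adjusted p = 0.0019). The GS4T libraries agreed closely for these 3 genes, all libraries of this comparison were female, and each of the 3 passed with any 1 library left out.

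Cd81 was at 1304 and 1329 in distal GWTT and 772 and 629 in GS4T cells (log2 fold change -0.92, adjusted p = 0.0089), just short of the size limit. Pdgfra was at 20211 and 18516 against 35326 and 34452 (0.85, adjusted p = 0.017), Pdgfrb at 6007 and 5477 against 9202 and 8756 (0.65, adjusted p = 0.015), and F3 at 2035 and 2126 against 3411 and 3004 (0.62, adjusted p = 0.015). These 3 were above both controls in both GS4T libraries, but by less than the size limit. The transcription factors did not follow the receptors. Foxl1 was at 992 and 988 in GWTT and 1154 and 768 in GS4T cells, with the controls between the knockouts (-0.07, adjusted p = 0.82). Sox6 was at 999 and 1011 against 720 and 356 (-0.99 ± 0.32, adjusted p = 0.074), and Ackr4 at 874 and 1002 against 653 and 1224 (-0.07, adjusted p = 0.89). Without the first distal GS4T library the log2 fold changes were -1.06 for Cd81 and -1.50 for Sox6, from 1 GS4T library.

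Loss of Alk3 in the proximal colon gave 1 call. Foxl1 rose from 261 and 280 to 879 and 1022 normalized counts, a log2 fold change of 1.81 ± 0.15 (SE; adjusted p = 0.049), where 0.345% of 15346 genes tested rose and 0.013% fell. This call stood just inside the limit and was lost with edgeR, with a pseudocount of 0.1 and with upper-quartile rescaling. Sox6 was at 417 and 391 in GWTT and at 1314 and 1999 in GA3T cells (adjusted p = 0.060), with a log2 fold change between 1.70 and 2.30 as each library was left out in turn. Pdgfra, at 17824 and 16123 against 28477 and 32536 (0.84, adjusted p = 0.11), Pdgfrb, at 4856 and 4739 against 6879 and 7553 (0.59, adjusted p = 0.10), and F3, at 1625 and 2191 against 2893 and 3340 (0.72, adjusted p = 0.13), lay above the controls in both GA3T libraries. The groups did not overlap for 8 of 10 members and for 56.4% of all genes.

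The deeper fibroblast genes differed between the GA3T libraries. Cd34 was at 16246 and 18229 in proximal GWTT cells and at 10597 and 3867 in GA3T cells (log2 fold change -1.43 ± 0.48, adjusted p = 0.20), Cd81 at 2635 and 2748 against 2124 and 861 (-0.99, adjusted p = 0.26), Ackr4 at 10944 and 6348 against 6921 and 1723 (-1.27, adjusted p = 0.36) and Dpt at 83601 and 77882 against 60464 and 28162 (-0.97, adjusted p = 0.28). In each case the lower value was the second library, which is also the one with little Gli1 and a female one. Within the male pair of libraries the log2 differences were -0.62 for Cd34, -0.31 for Cd81, -0.66 for Ackr4 and -0.47 for Dpt, and within the female pair -2.24, -1.67, -1.88 and -1.47. Foxl1 differed by 1.75 and 1.86 and Sox6 by 1.65 and 2.35 within those pairs. Pi16 was at 2504 and 2775 in GWTT and 2806 and 2261 in GA3T cells (-0.07, adjusted p = 0.82). With each library left out in turn the log2 fold change ran from -2.15 to -0.70 for Cd34 and from -1.64 to -0.34 for Cd81. For Foxl1 it ran from 1.70 to 1.91. Which members passed depended on the library left out. With sex as a term, which here pairs the libraries by their number, Foxl1 and Sox6 passed, among 253 genes in all.

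In the distal colon of GA3T mice limma called 0 of 10 members, 0% of 15414 genes higher and 0% lower. With the p left unadjusted (limit 0.05) Cd34 passed, among 1197 of the 15414 genes. DESeq2 also called it, among 776 genes, and edgeR called 0 members and 0 genes. Cd34 was at 13340 and 12196 normalized counts in GWTT and 7379 and 2792 in GA3T cells (log2 fold change -1.49 ± 0.45, adjusted p = 0.20). It passed without the first GA3T library, the only male one of this comparison, in a fit that rests on 1 GA3T library and takes its spread from the GWTT libraries. A term for sex sets the same library aside and is no separate check. Pi16 was at 4668 and 4402 against 3039 and 2808 (-0.63, adjusted p = 0.12), Sox6 at 1140 and 1150 against 1543 and 1415 (0.37, adjusted p = 0.19) and Pdgfra at 23057 and 21071 against 27814 and 37401 (0.55, adjusted p = 0.30). Dpt was at 44677 and 41466 against 41108 and 25674 (-0.41, adjusted p = 0.52) and Cd81 at 1487 and 1513 against 1375 and 949 (-0.39, adjusted p = 0.35). Foxl1 (1131 and 1125 against 1220 and 1040), F3 (2322 and 2419 against 2951 and 2166), Pdgfrb (6853 and 6233 against 6628 and 7396) and Ackr4 (997 and 1140 against 2057 and 569) overlapped with the controls. The groups did not overlap for 6 of 10 members and for 54.3% of all genes.

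**Figure D2:**
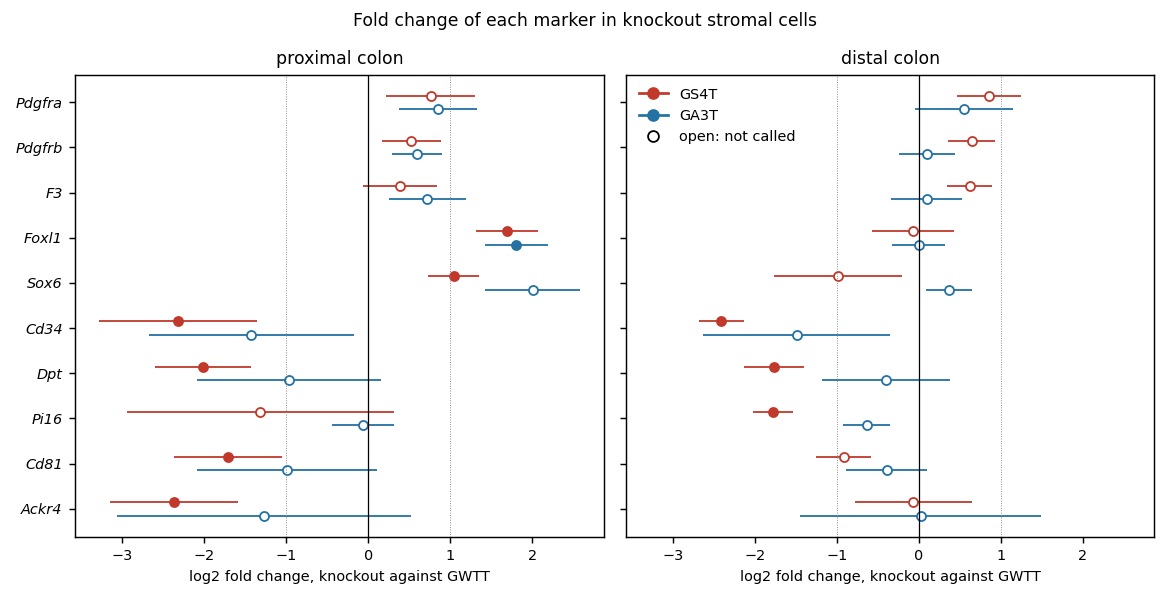
Log2 fold change of each marker against GWTT in the proximal and the distal colon, with limma's 95% interval; filled points passed both limits, and dotted lines mark the size limit of 1. Cd34 lay at -2.32 and -2.41 in GS4T cells of the segments and Foxl1 at 1.69 and -0.07.

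The knockouts share their control libraries, so their values are set side by side only. The log2 fold changes of Cd34 were -2.32 and -2.41 in proximal and distal GS4T cells and -1.43 and -1.49 in GA3T cells, with a wider spread between GA3T libraries. Pdgfra was higher by 0.76 and 0.85 in GS4T and by 0.84 and 0.55 in GA3T cells. Pi16 differed by -1.32 and -1.78 in GS4T and by -0.07 and -0.63 in GA3T cells.

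The segment difference within each genotype is given here as a description, since genes with a large difference in the controls are prone to show a smaller one elsewhere. Foxl1 differed by -1.97 log2 units of CPM, proximal minus distal, in GWTT cells, by -0.19 in GS4T and by -0.18 in GA3T cells. Sox6 differed by -1.42, 0.63 and 0.20, Ackr4 by 3.04, 0.77 and 1.74, and Cd81 by 0.92, 0.15 and 0.31 in the same order. Cd34, in contrast, differed by 0.51, 0.62 and 0.56. In the test of whether a knockout's effect differed between segments 0 members passed for either knockout, against 0.189% of 15314 genes for GS4T and 0% of 15301 for GA3T. The GS4T fold change in the proximal minus that in the distal colon was 1.77 ± 0.27 (SE) for Foxl1 (adjusted p = 0.070), 2.03 ± 0.40 for Sox6 (adjusted p = 0.12), whose fold changes had opposite signs, and -2.30 ± 0.50 for Ackr4 (adjusted p = 0.14). For GA3T these differences were 1.81 ± 0.18 (adjusted p = 0.099), 1.63 ± 0.27 (adjusted p = 0.40) and -1.29 ± 1.07 (adjusted p = 0.91). Both interaction fits use the same GWTT libraries. For Cd34 the interval of the difference ran from -0.96 to 1.14 in GS4T, which leaves room for sizeable differences between segments.

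**Figure D3:**
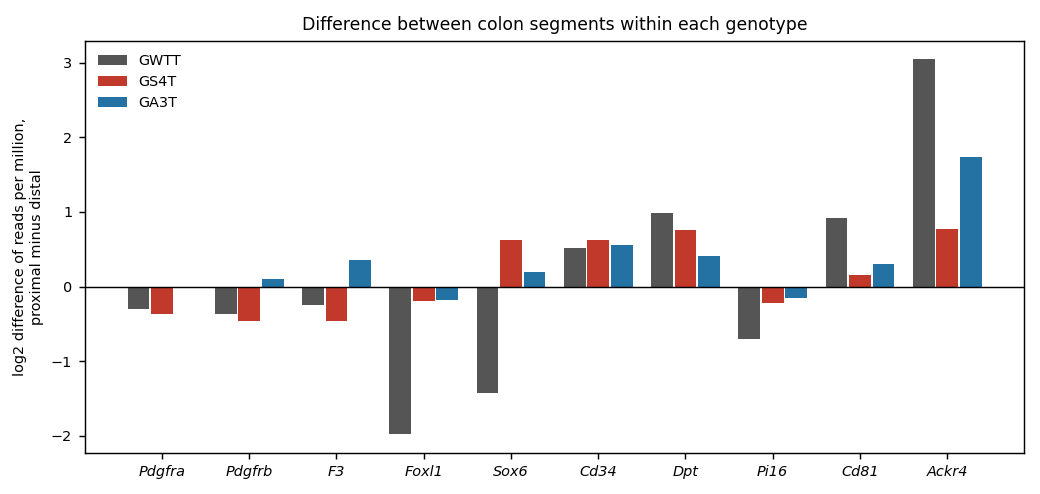
Difference between segments in CPM (log2, proximal minus distal) for each marker, from the means of 2 libraries per genotype and segment. The GWTT bars of Foxl1 (-1.97), Sox6 (-1.42) and Ackr4 (3.04) were longer than those of either knockout, whereas the 3 Cd34 bars were alike, from 0.51 to 0.62.

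Other genes of the same subsets were taken from lists of known markers. These lists were also chosen with earlier results of these data known, so they are a description and no independent support. Of 12 other telocyte genes 7 rose in proximal GS4T cells (Wnt5a, Bmp3, Bmp5, Bmp7, Frzb, Nrg1 and Tnc) and 0 fell, with a median log2 fold change of 1.45 against 0.02 over all genes tested. In distal GS4T cells 5 rose and 4 fell (Wnt4, Wnt5b, Edn3 and Postn), with a median of -0.20 against 0.00. Of all genes tested 5.25% rose in proximal GS4T cells, and 7.88% rose and 6.08% fell in distal ones. Frzb, a secreted Wnt inhibitor, rose by 4.62 and 3.61 in the segments, and Nrg1, an EGF-family growth factor, by 2.92 and 2.99. In GA3T cells 5 of the 12 rose in the proximal colon (Wnt5a, Bmp3, Bmp5, Bmp7 and Nrg1, median 1.41), where 0.345% of all genes tested rose. Wnt5a, Bmp5 and Nrg1 (limma adjusted p = 0.0489) and Bmp3 (0.0496) stood just inside the limit, and edgeR called 0 genes in this comparison. In the distal colon of GA3T mice 0 of the 12 passed (median 0.57), where 0% of all genes tested passed. In control cells 8 of the 12 were called lower in the proximal segment, as were 1.44% of all genes, with a median difference of -1.17 against -0.02 over all genes. In distal GS4T cells the telocyte list thus moved both ways.

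Of 11 other adventitial genes 6 fell in proximal GS4T cells (Dpp4, Ly6a, Igfbp6, Has1, Clec3b and Tnxb, median -1.50) and 6 in distal ones (Cd55, Col15a1, Has1, Mfap5, Clec3b and Tnxb, median -1.07), and 0 rose. Of all genes tested 4.36% and 6.08% fell in these comparisons, with medians of 0.02 and 0.00. Clec3b, which codes for tetranectin, had log2 fold changes of -2.07 and -3.09. In GA3T cells 0 passed, with medians of -0.99 and -0.60. Of all genes tested only 0.013% fell in proximal and 0% in distal GA3T cells, so these counts of 0 show no difference from GS4T cells. Of 7 other crypt-base genes Wnt2b, a Wnt ligand, and Chrdl1, a BMP antagonist, fell in both segments of GS4T mice, with log2 fold changes of -1.88 and -1.90 for Wnt2b and of -2.97 and -2.92 for Chrdl1. Grem1, another BMP antagonist, rose in the distal colon by 2.04 and was at -0.58 in the proximal colon (adjusted p = 0.25). The median of the crypt-base list in GS4T cells was -0.58 proximally and 0.37 distally. The distal falls of Wnt2b and Chrdl1 were thus not shared by the list as a whole. Its summed CPM was 1829 to 3043 in GS4T libraries and 1796 to 2551 in GWTT libraries, so the ranges overlapped. General fibroblast markers had medians of 0.42 and 0.17 in the GS4T comparisons. Among them Lum was called lower in both segments and Dcn in the distal one, and 0 were called higher.

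Markers of other cells also differed between genotypes. All 6 epithelial markers rose in distal GS4T cells, where 7.88% of all genes tested rose. In proximal GS4T cells 0 of 6 passed, at a median log2 fold change of 4.18. The 6 epithelial markers summed to 823 to 2173 CPM in GS4T, 516 to 1163 in GA3T and 15.4 to 658 in GWTT libraries, the 8 macrophage markers to 393 to 1109, 394 to 769 and 121 to 433, and the 5 neutrophil markers to 39.2 to 165, 10.8 to 37.2 and 2.08 to 6.49. The 6 pericyte markers, which matter for Pdgfrb, summed to 320 to 875 in GS4T, 227 to 349 in GA3T and 199 to 244 in GWTT libraries, and 5 of them rose in distal GS4T cells. Smooth muscle markers summed to 934 to 1592, 725 to 1148 and 329 to 1014, and interstitial cell of Cajal markers to 51.3 to 65.9, 48.5 to 90.8 and 71.4 to 83.3. Endothelial markers, of interest because endothelium also carries Cd34, summed to 48.5 to 167 in GS4T, 53.3 to 121 in GA3T and 108 to 178 in GWTT libraries, and lymphatic endothelial markers to 18.0 to 63.8, 11.4 to 32.3 and 10.1 to 21.3. Gene by gene, the endothelial list had median log2 fold changes of 1.47 and 0.49 in proximal and distal GS4T cells. Cdh5 and Egfl7 were called higher proximally, and Tek was called lower in both segments. B and plasma cell markers summed to 112 to 829, 894 to 1953 and 1567 to 4829. Mesothelial markers stayed within 4.81 to 17.4, T cell markers within 2.22 to 23.9 and glial markers within 1.55 to 8.15 over all libraries. Cxcr2, a neutrophil marker, was at 0 in both distal libraries of GWTT and of GA3T, and Ms4a1, a B cell marker, at 0 in both proximal libraries of GA3T. The part of these cells in the values of the members was not tested.

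**Figure D4:**
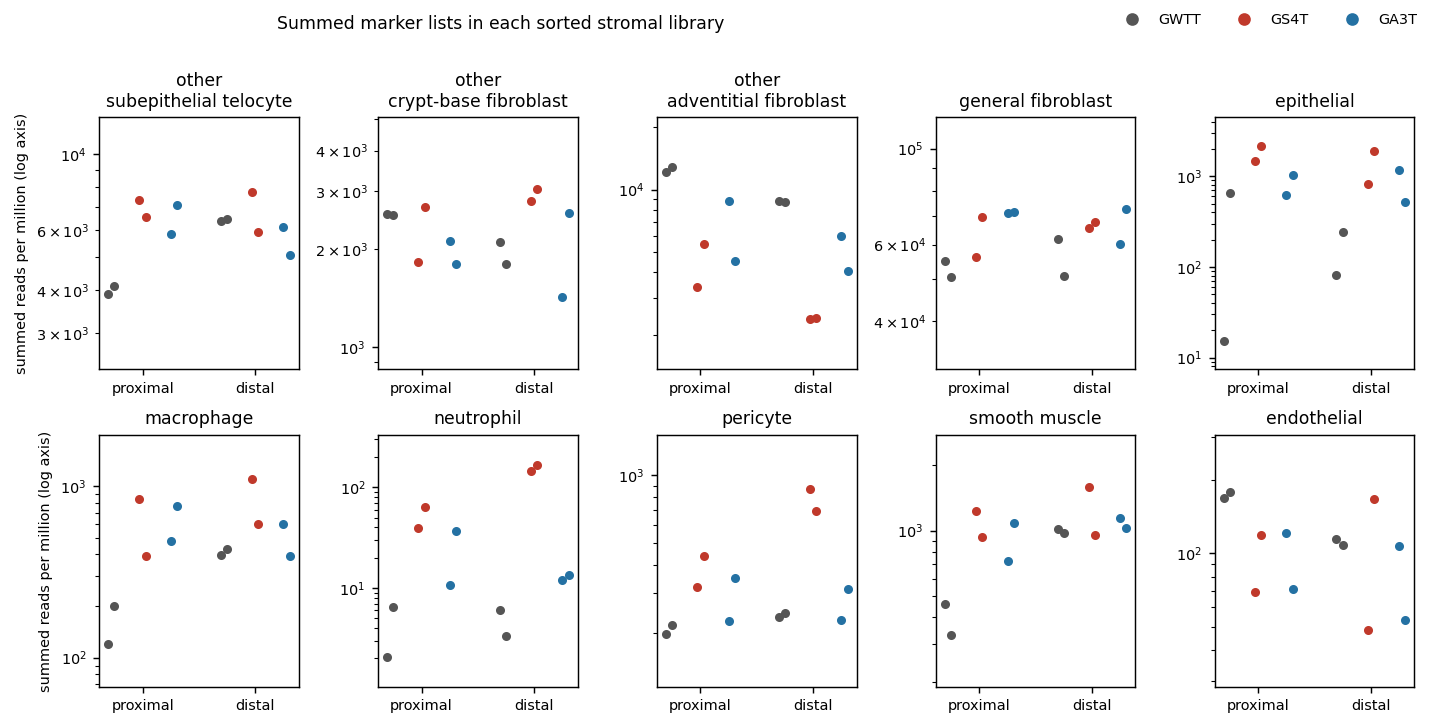
Summed CPM (log axis) of 10 marker lists in the 12 stromal libraries, by segment and genotype; each point is a library. Adventitial markers were lower in all GS4T libraries (2383 to 5462) than in all GWTT libraries (8738 to 12777), and epithelial and neutrophil sums were higher.

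Across the 12 libraries, which share genotype and segment structure, the genes most like each member in log2 CPM are given as a description, out of 13471 genes compared. Nrg1 (r = 0.98) and Adamts7 (0.98) were most like Pdgfra, Ms4a6d (0.96) and Tmem104 (0.96) most like Pdgfrb, Bmp5 (0.96) and Cend1 (0.96) most like Foxl1, Fam214b (0.96) and Ms4a14 (0.93) most like F3, and Chrnb1 (0.97) and Ccdc3 (0.96) most like Sox6. For Cd34 they were Gsn (0.98) and Lgi4 (0.98), for Cd81 Klhl34 (0.98) and Flrt2 (0.97), for Pi16 Lrrn2 (0.93) and Gnaz (0.91), for Ackr4 Engase (0.94) and Ephx4 (0.94), and for Dpt Lsamp (0.99) and Hpgd (0.98). Among the members Cd34, Cd81 and Dpt were most alike, with r from 0.94 to 0.95, and Pdgfra and Cd34 were most unlike, at -0.93.

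Sorted Muc2-mCherry+ goblet cells (12 libraries) and colon organoids (18) of the same series were read for the same genes, without a test. Foxl1, Pi16 and Dpt had no row in any goblet cell or organoid table, and Cd34 had none in goblet cells and at most 1.09 CPM in organoids. Pdgfra reached at most 0.67 in the goblet cell tables that list it, against 925 to 2155 in stromal cells, and Ackr4 at most 1.81 in goblet cells and 2.10 in organoids, against 29.5 to 615. F3 was at 21.8 to 160 in goblet cells and 196 to 687 in organoids, against 91.4 to 208 in stromal cells, and Cd81 was at 38.7 to 128 and 69.0 to 132, against 36.6 to 158. The ranges of F3 and of Cd81 in goblet cells thus overlapped those in stromal cells. Sox6 was at 2.10 to 18.1 in goblet cells and 0.18 to 6.11 in organoids, and Pdgfrb at 3.42 to 20.3 and 5.05 to 60.4.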

How the data were processed

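RNA of sorted cells was sequenced on an Illumina platform. The authors mapped reads uniquely to mm10 with STAR 2.5.3 and normalized gene counts with DESeq2 1.28.1. The values deposited by the authors are a signal per gene, read counts divided by 1 size factor per library within each table. Every value was a whole multiple of its column's step (100% within 0.01 of a whole number), so reads were recovered by division and gave depth and CPM. The 12 tables hold 42 libraries, 12 of them stromal, and a count of 0 allows 3 reads, for counting error only.

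Each knockout comparison was fitted alone with limma 3.58.1 (trend, 2-sided) on log2(normalized count + 1), for genes with a mean of at least 10 over the 4 libraries. Segments were compared on log2(CPM + 0.1), with a mean of at least 0.5, and differences of effects as an interaction on both tables of a knockout. Calls had a Benjamini-Hochberg adjusted p under 0.05, over all genes tested, and a log2 fold change of 1 or more in size. An exact permutation test of 2 against 2 libraries cannot go below 0.333, so none was used. Alternatives were edgeR 4.0.16 and DESeq2 1.42.0 on recovered reads, other pseudocounts, limits and scalings, the replicate number as a block, the unadjusted p and each library left out. Sex of the library as a term was added after the data were seen. The fits were also run on simulated counts, drawn independently for each gene. Those counts lack deviations of whole libraries, so they cannot speak to calls that turned on 1 library.

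Genes named are all members, Smad4, Bmpr1a and Gli1, for each member the 2 genes with the highest Pearson r over the stromal libraries, and genes of other lists on which a count turns. The members and lists were chosen with earlier results of these data known. Exon lengths and positions came from GENCODE M21 (GRCm38, which is mm10).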

Additional observations from a re-analysis of the deposited data

Results flagged for a closer look

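Sox6 went opposite ways in the segments of GS4T mice: both proximal GS4T libraries lay above both GWTT libraries, and both distal GS4T libraries lay below them. Genes were flagged by this very pattern, so it is the reason for the listing and no support. The groups did not overlap for 65.4% of all genes in the proximal and 67.5% in the distal segment. The distal GS4T libraries also differed, at 720 and 356 normalized counts. The difference of the fold changes, proximal minus distal, was 2.03 on the log2 scale, and in limma's interaction test it did not pass (adjusted p = 0.12). It was between 1.52 and 2.54 with each library left out.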

How the results depend on the processing

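Which members passed in GS4T cells changed little with tool, pseudocount, low-value limit or scaling: 5 or 6 passed in the proximal segment and 3 in the distal one. The GA3T results depended on the setting. In the proximal colon, where 1 member passed, 0 did with a pseudocount of 0.1, with upper-quartile rescaling and with edgeR, 2 did with a pseudocount of 10, with DESeq2 and with the replicate block, which is the same fit here as sex as a term, and 3 at an unadjusted p. In the distal colon DESeq2, the unadjusted p and the sex term each gave 1 where limma gave 0. Over all genes the proximal GA3T count was 55 with limma, 969 with DESeq2, 0 with edgeR and 1451 at an unadjusted p. The distal GA3T counts over all genes were 0, 776, 0 and 1197 in the same order. The sex term took the segment count of controls from 3 to 0. Where 1 library of a comparison was male (proximal GS4T, distal GA3T, segments of controls) that term amounts to leaving it out, and it was not run in distal GS4T cells, all female.

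With each library left out in turn, and the lone library of a group assumed to vary like the other group, the members called ranged from 0 to 6 (proximal GS4T), 3 to 5 (distal GS4T), 0 to 4 (proximal GA3T), 0 to 1 (distal GA3T), 0 to 0 (segments of controls) and 0 to 2 (GS4T effect between segments). Such fits have 1 library fewer. The number of genes called over the whole table also changed widely with them, so these counts say little about the members. Signs changed only for values near 0 or with a wide spread: Foxl1 (-0.37 to 0.22) and Ackr4 (-0.52 to 0.39) in distal GS4T cells, Pi16 in proximal GA3T cells (-0.22 to 0.090), and Foxl1 (-0.12 to 0.11), F3 (-0.13 to 0.32) and Ackr4 (-0.91 to 0.95) in distal GA3T cells. The same held for differences between segments in GS4T for Pdgfra (-0.33 to 0.15), Pdgfrb (-0.28 to 0.040), Cd34 (-0.49 to 0.66) and Pi16 (-0.55 to 1.47), and in GA3T for Cd34 (-0.66 to 0.79) and Cd81 (-1.25 to 0.051). In distal GA3T cells the sex term gave -0.13 for F3 and -0.91 for Ackr4, and DESeq2 gave 0.000162 for Foxl1.

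Same-numbered libraries of compared groups deviated together only weakly (correlation 0.10 to 0.19 over genes), and the labels do not say that a number is shared, so the replicate block carries no weight as a pairing. Beyond proximal GA3T cells it changed no count of members. With 2 libraries per group, members that differ by less than the spread between libraries cannot be resolved.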
